A study of Mus musculus with 10 samples.

Results

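The genes described here drive the cell cycle and DNA replication. They are 45 of the 50763 genes in the count table, chosen by symbol, and they fall into 23 genes of the G1/S transition and DNA synthesis and 22 genes of G2 and mitosis (G2/M). Their RNA was measured by RNA-seq in explanted lens epithelia of mice aged 3 weeks on the FVB/N background, with 3 wild-type (WT), 3 OVE853 and 4 OVE918 libraries, each made from a pool of mice. OVE853 and OVE918 are transgenic lines whose lens cells secrete human TGF-β1 in a self-activating form, driven by the mouse αA-crystallin promoter, and both form anterior subcapsular cataract plaques. A pool held explants of up to 9 WT mice, up to 9 OVE853 mice or up to 7 OVE918 mice, and the whole explant entered the library, so that plaque and surrounding epithelium were not separated. In such bulk tissue, fewer cycling cells and less RNA per cycling cell cannot be told apart.

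The cell cycle is driven by cyclins, proteins that come and go, and by the cyclin-dependent kinases (CDKs) that they switch on. D and E cyclins with their kinases release E2F factors from the retinoblastoma protein, and E2F then turns on genes for the replicative helicase, for nucleotide supply and for DNA synthesis. Later genes of G2 and mitosis, such as cyclin B, the mitotic kinases and the kinetochore proteins, are held down in resting cells by the DREAM complex and turned on by B-MYB and FOXM1. In the lens, division is largely confined to the epithelium, mostly in a germinative zone near the equator, and cells leave the cycle for good as they become fibers. TGF-β is known as an inhibitor of epithelial proliferation in many tissues, whereas plaques of anterior subcapsular cataract are multilayered.

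The promoters of both classes differ in the short motifs that they hold, a property that the choice of genes did not use. Windows from 250 bases before the transcription start to 50 bases from the start on were read from GRCm39 at the canonical GENCODE start for 23 G1/S genes and 21 G2/M genes, Kif20a being left out, and both strands were searched, with overlapping matches each counted. The cell cycle homology region (CHR) core TTTGAA, to which DREAM and B-MYB complexes are known to bind, was found in 9 of 21 G2/M windows (42.9%) and 3 of 23 G1/S windows (13.0%), against 17.0% of 21208 windows of protein-coding genes. Its variant TTCGAA was found in 4 G2/M windows and 0 G1/S windows (1.99% of all windows), and its variant TTTAAA in 9 G2/M and 5 G1/S windows (13.1% of all windows). The CCAAT box, the site of NF-Y, was found in 15 G2/M and 11 G1/S windows (39.9% of all windows). The E2F-type motif TTTNNCGC was found in 10 G1/S windows (43.5%) and 1 G2/M window, that of Cdk1, against 6.30% of all windows. Among 13752 windows of genes that passed the filter on low counts, as all members did, CHR was found in 13.2% and the E2F-type motif in 8.02%. There, TTCGAA was found in 2.24%, TTTAAA in 11.2% and the CCAAT box in 39%. These counts are matches of letters and no measure of binding.

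The promoters of 6 genes are printed from 170 bases before the start to 30 bases from the start on, with every match that lies whole in the stretch in capitals. Cdk1, the kinase of mitotic entry (chr10:69188739-69188938, minus strand), holds both CHR and E2F-type matches. Top2a, the topoisomerase that untangles chromosomes (chr11:98915012-98915211, minus strand), holds CHR, TTCGAA and CCAAT matches. Mcm6, a helicase subunit (chr1:128287423-128287622, minus strand), holds a run of E2F-type matches. Cenpa, the histone variant of the centromere (chr5:30823951-30824150, plus strand), Tyms, thymidylate synthase (chr5:30278598-30278797, minus strand), and Cdk4, the kinase of the D cyclins (chr10:126899205-126899404, plus strand), are printed because they are the genes that passed the test in OVE918. Of these last ones, the printed stretch of Cenpa holds CCAAT matches near the start and those of Tyms and Cdk4 hold none of the searched motifs. Cdk1, Top2a and Mcm6 were chosen as examples after the matches were seen.
Cdk1: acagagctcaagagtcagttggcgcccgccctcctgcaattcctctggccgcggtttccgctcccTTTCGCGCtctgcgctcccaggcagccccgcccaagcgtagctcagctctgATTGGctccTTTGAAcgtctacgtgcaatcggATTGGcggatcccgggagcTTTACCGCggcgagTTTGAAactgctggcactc
Top2a: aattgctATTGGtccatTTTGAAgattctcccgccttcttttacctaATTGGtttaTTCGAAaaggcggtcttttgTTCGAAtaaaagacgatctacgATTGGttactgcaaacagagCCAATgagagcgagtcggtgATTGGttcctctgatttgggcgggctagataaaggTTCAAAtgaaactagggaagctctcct
Mcm6: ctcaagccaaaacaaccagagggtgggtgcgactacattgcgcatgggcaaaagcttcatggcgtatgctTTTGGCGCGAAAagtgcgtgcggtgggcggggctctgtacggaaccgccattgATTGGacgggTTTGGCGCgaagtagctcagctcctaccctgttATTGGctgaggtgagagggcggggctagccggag
Cenpa: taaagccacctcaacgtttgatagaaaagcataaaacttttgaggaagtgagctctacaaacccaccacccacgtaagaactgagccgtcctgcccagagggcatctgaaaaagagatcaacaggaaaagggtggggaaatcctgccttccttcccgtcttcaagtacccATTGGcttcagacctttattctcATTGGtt
Tyms: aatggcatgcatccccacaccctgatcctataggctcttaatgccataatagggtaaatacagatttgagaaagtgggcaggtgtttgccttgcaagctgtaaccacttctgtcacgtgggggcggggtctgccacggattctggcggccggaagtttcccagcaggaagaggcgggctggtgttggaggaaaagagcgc
Cdk4: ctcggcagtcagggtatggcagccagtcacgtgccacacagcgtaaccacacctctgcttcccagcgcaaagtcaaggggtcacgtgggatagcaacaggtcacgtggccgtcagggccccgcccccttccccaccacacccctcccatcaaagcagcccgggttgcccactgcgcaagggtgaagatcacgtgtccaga

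**Figure D1:**
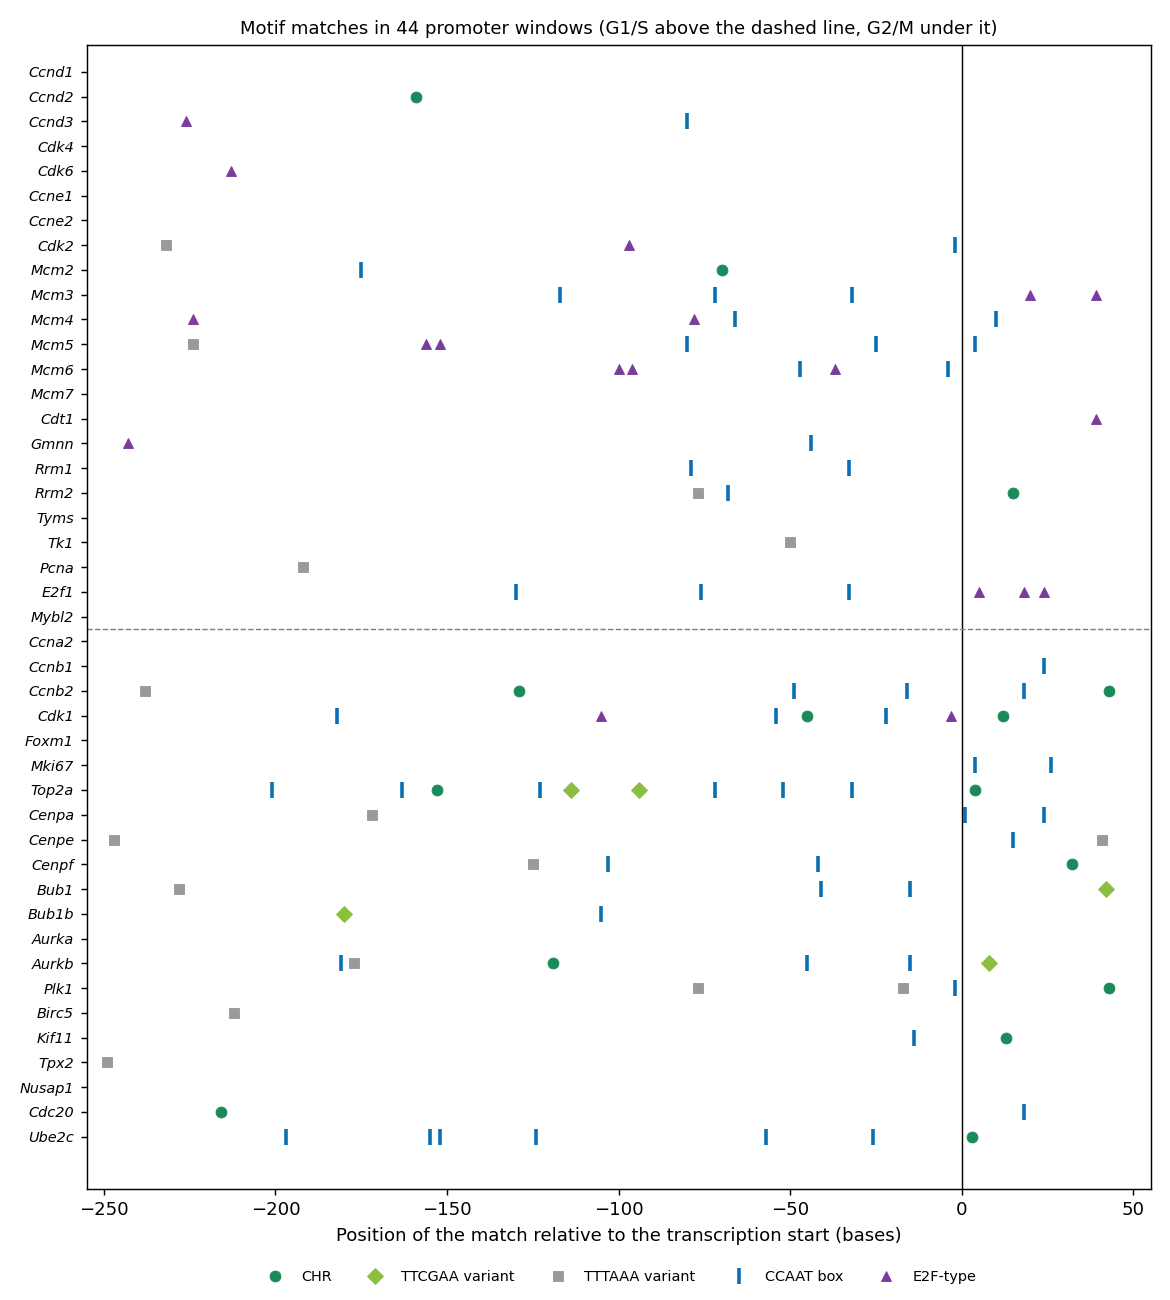
Motif matches in 44 promoter windows of cell cycle genes, 1 gene a line, by the position of the first base of the match relative to the transcription start (x axis, bases). Symbols stand for the motifs, and E2F-type matches lie almost entirely in the G1/S genes above the dashed line, whereas CHR matches were found in 9 G2/M and 3 G1/S windows.

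Total counts on genes ranged from 24073311 to 31908525 per library, and all 45 genes were among the 18058 that passed the filter on low counts. Levels are counts scaled by library size and TMM factors (CPM). The 8 lens epithelial markers summed to between 100458 and 187398 CPM, most of it from the crystallins Cryaa and Cryab, and the lens transcription factors Foxe3 (means of 606, 744 and 562 CPM in WT, OVE853 and OVE918) and Pax6 (430, 440 and 372 CPM) were present in each group. Of these 8 markers, 3 were called lower in OVE853 and 4 in OVE918, among them the gap junction gene Gja1 (520 ± 36.4, 106 ± 14.2 and 63.9 ± 9.88 CPM, SD). WT replicate 3 stood apart from the other WT libraries in the summed levels of markers of other eye tissues. The 6 retinal neuron markers summed to 795 CPM there against 82.8 and 98.8 CPM in WT replicates 1 and 2, the 6 endothelial markers to 108 against 20.7 and 18.0 CPM, the 8 photoreceptor markers to 94.1 against 31.9 and 23.8 CPM, and the 5 corneal markers to 1520 against 229 and 908 CPM. Its 10 lens fiber markers were the lowest of all libraries (6193 CPM, against 10790 to 42911 CPM elsewhere), and its lens epithelial markers were close to those of the other WT libraries (145303 against 153373 and 148713 CPM). Values without this library stand beside the members described with their values in every library, and as ranges for all 45 genes.

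Per kilobase of exon (FPKM), the D cyclins and Cdk4 were the most abundant of the 45 genes. Mean FPKM over the 10 libraries was 52.6 for Cdk4, 52.2 for Ccnd3, 51.3 for Ccnd1 and 46.4 for Ccnd2, and their ranges over libraries overlapped (33.8 to 62.9, 41.9 to 56.9, 41.6 to 61.1 and 29.2 to 62.4). Pcna, the sliding clamp of DNA polymerase, followed at 39.1 FPKM (31.9 to 49.4). Mcm2, a subunit of the MCM2-7 helicase, was next at 17.4 FPKM (6.82 to 27.0), and its highest library lay below the lowest library of Pcna. Top2a was the most abundant G2/M gene at 12.1 FPKM (3.66 to 18.9), and its range overlapped that of Mcm2. The lowest genes were Ccne2, an E cyclin, at 0.733 FPKM (0.322 to 0.893) and Cenpe, a kinetochore motor, at 1.14 FPKM (0.269 to 1.52). The G1/S genes together made 818 to 1489 CPM of a library and the G2/M genes 115 to 504 CPM.

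The comparison of each transgenic line with WT asks whether a lens under constant TGF-β1 holds more or less RNA of the genes that drive division. In OVE918, Cdk4, Tyms and Cenpa rose and no member fell, and in OVE853 none of the 45 genes passed the test (edgeR quasi-likelihood test, FDR of at most 0.05, Benjamini-Hochberg over all 18058 genes). Most fitted changes were nevertheless above 0. In OVE853 20 of 23 G1/S genes and 22 of 22 G2/M genes had a log2 fold change above 0, and in OVE918 21 of 23 and 22 of 22, against 49.6% and 51.3% of all genes tested. Both comparisons share the WT libraries, so these counts are not separate evidence. Genes used as markers of other tissues moved between WT and the lines as well. The 5 non-pigmented ciliary markers had a mean sum of 227 CPM in WT, 57.8 CPM in OVE853 and 23.98 CPM in OVE918 (4 and 5 called lower), the 5 Müller glia markers of 4075, 2148 and 2626 CPM (5 and 4 called lower), and the 5 corneal markers of 885, 71.7 and 53.1 CPM (2 tested, 2 called lower in each line). Endothelial markers were called higher for 1 of 6 genes in OVE853 and 4 of 6 in OVE918, although their sum was highest in WT replicate 3, and macrophage markers for 0 and 2 of 10. The Müller glia markers summed to 1993 to 4941 CPM over the libraries. The study lists Slc1a3 of these, and Slc6a13 of the ciliary markers, among transporter genes reduced by TGF-β1. It reports most genes of that cohort as elevated in normal lens epithelium. Which cells these marker levels came from, and the part of other tissues in the cell cycle levels, was not tested.

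In the main edgeR fit, the count of calls did not exceed the background. In OVE853, 0 of 45 genes were called, against 13.6% of all genes tested in either direction and 6.54% called higher. There, 8 of 45 members had an unadjusted edgeR p under 0.05, against 5917 of 18058 genes tested. In OVE918, 3 of 45 genes (2 G1/S, 1 G2/M) were called, all of them higher, against 16.9% of all genes in either direction and 6.85% called higher. Here, 15 of 45 members had an unadjusted edgeR p under 0.05, against 5871 of 18058 genes tested. A called gene that changed by 1 or more on the log2 scale was counted as a differentially expressed gene (DEG). Cenpa in OVE918 was the one DEG among the members, where 8.79% of all genes were DEGs, and OVE853 had 0 member DEGs against 6.89%. All libraries of the line lay above all WT libraries for 14 of 45 members in OVE853 and 7 of 45 in OVE918. Both counts exceeded the share of all genes (21.0% and 12.0%). Without WT replicate 3 the groups lay apart in this way for 11 members (24.4%) and 8 members (17.8%), against 22.8% and 15.5% of all genes. DESeq2 called 2 members in OVE853 and 10 in OVE918, all of them higher. Its calls over all genes were also more frequent, at 21.6% and 22.7% in either direction and 9.20% and 9.77% higher. The 10 of 45 members in OVE918 thus exceeded the share of all genes that DESeq2 called higher.

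The median shift was larger for G2/M genes than for G1/S genes in both lines. On the log2(CPM + 0.5) scale, the median difference of group means was 0.38 for G1/S genes and 0.58 for G2/M genes in OVE853, and 0.35 and 0.77 in OVE918, against medians of 0.0047 and 0.013 over all genes tested. Leaving out WT replicate 3 brought these medians to 0.11 and 0.13 in OVE853 and to 0.15 and 0.26 in OVE918. No test was run on the medians.

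**Figure D2:**
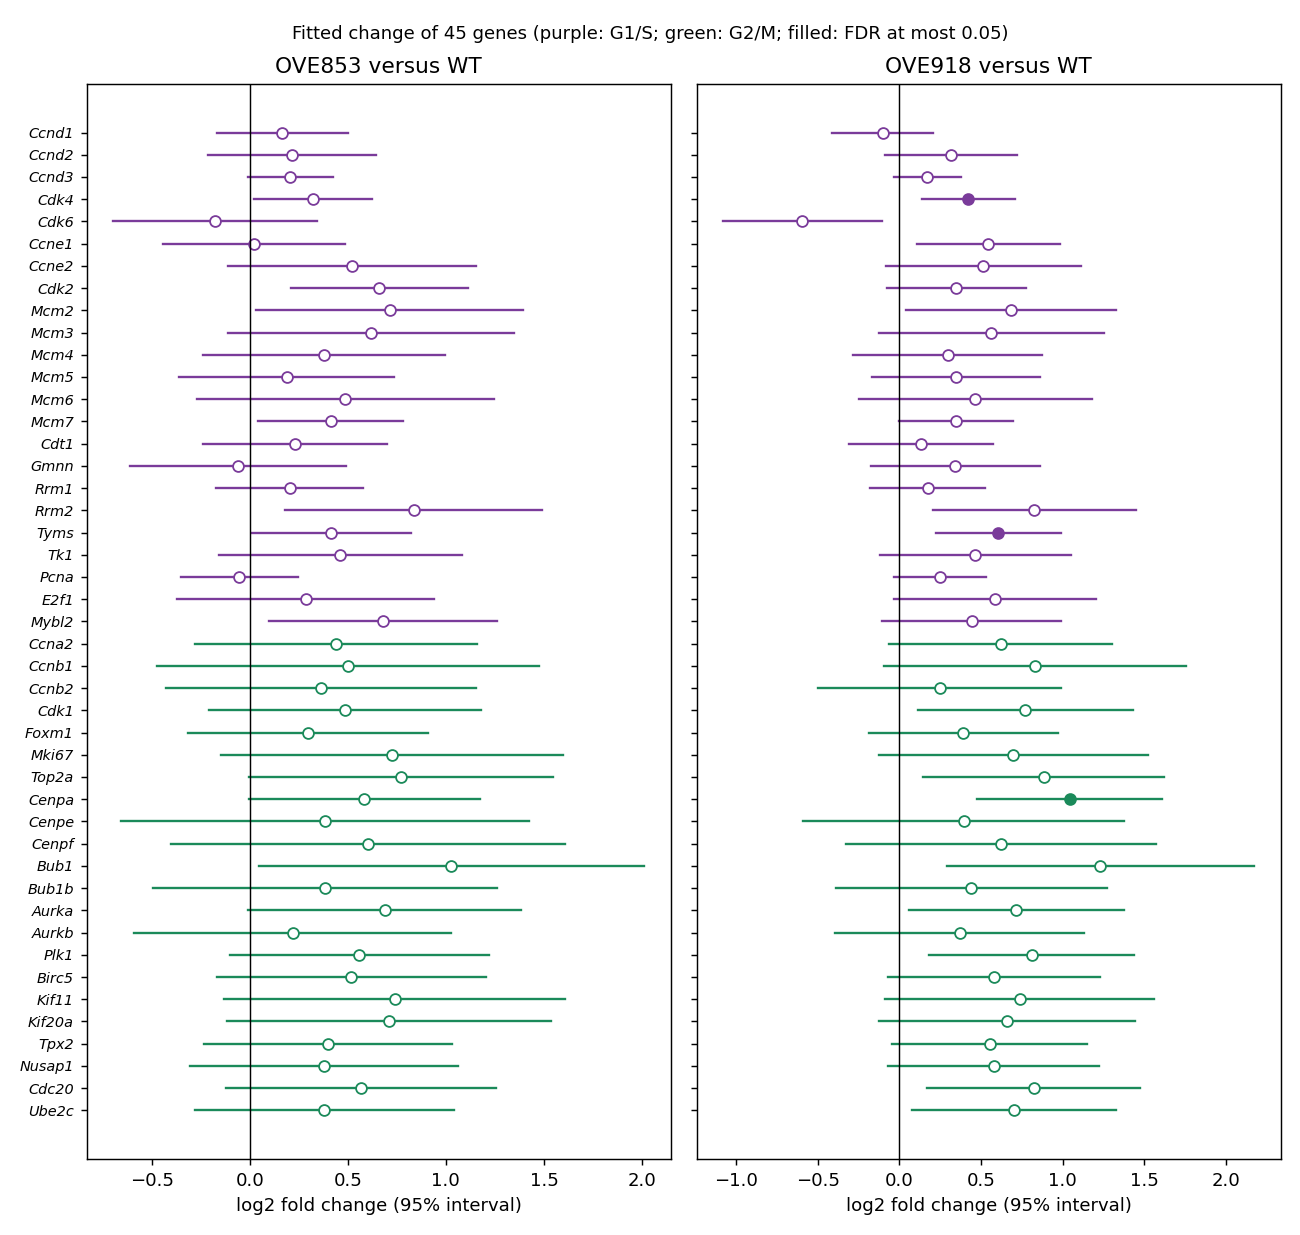
Fitted log2 fold change (x axis) of 45 cell cycle genes in OVE853 (left) and OVE918 (right) against WT, with 95% intervals. Purple marks G1/S genes, green G2/M genes, and filled points the 3 genes with an FDR of at most 0.05, namely Cdk4, Tyms and Cenpa in OVE918.

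Among the D cyclins and their kinases, which open G1, Cdk4 rose in OVE918. It was at 101, 111 and 74.1 CPM in WT, at 119, 120 and 118 CPM in OVE853 and at 116, 135, 122 and 138 CPM in OVE918. All 7 transgenic libraries lay above all 3 WT libraries. The log2 fold change was 0.42 ± 0.13 (SE) in OVE918 (edgeR FDR 0.0456) and 0.32 ± 0.14 in OVE853 (edgeR FDR 0.129). This call was kept in 7 of 20 alternative settings and was lost when any library other than WT replicate 2 was left out (edgeR FDR 0.101 without WT replicate 3, with a log2 fold change of 0.26, and 0.14 in OVE853).

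Cdk6, the other kinase of the D cyclins, was one of 2 members with a log2 fold change under 0 in OVE918, the other being Ccnd1. Its 3 WT libraries held 39.7, 32.8 and 21.0 CPM, its OVE853 libraries 27.1, 27.9 and 27.7 CPM and its OVE918 libraries 19.6, 23.4, 25.1 and 14.4 CPM. The 4 OVE918 libraries all lay below the 3 OVE853 libraries, and WT replicate 3 lay within the OVE918 range. The log2 fold change was -0.59 ± 0.22 in OVE918 (edgeR FDR 0.0896) and -0.18 ± 0.23 in OVE853 (edgeR FDR 0.633), and without WT replicate 3 the OVE918 value was -0.82 (edgeR FDR 0.0100, the lowest of a range that reached 0.258 over the alternatives) and the OVE853 value -0.43.

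The D cyclins themselves did not pass the test. Ccnd2, the D cyclin with the highest CPM, was at 294, 323 and 195 CPM in WT, at 294, 331 and 319 CPM in OVE853 and at 281, 417, 355 and 294 CPM in OVE918. The groups overlapped, and the log2 fold changes were 0.22 (95% interval -0.21 to 0.65) and 0.32 (-0.09 to 0.72), and -0.00071 and 0.12 without WT replicate 3. Ccnd3 had values of 0.21 and 0.17, and Ccnd1 of 0.17 and -0.10. The upper interval bound of Ccnd1 in OVE918 was 0.21 and the lower -0.41.

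The E cyclins and their kinase Cdk2 carry the cell into S phase. Cdk2 was at 15.2, 11.8 and 8.72 CPM in WT, at 19.3, 16.6 and 20.5 CPM in OVE853 and at 12.6, 18.6, 16.0 and 13.4 CPM in OVE918. The OVE853 libraries lay above all WT libraries and the OVE918 libraries did not. Its log2 fold change of 0.66 ± 0.20 in OVE853 missed the threshold (edgeR FDR 0.0555) and passed it in 5 of 20 alternatives (FDR 0.0109 to 0.190), among them the filter of 2 FPKM in 5 libraries. In OVE918 it was 0.35 ± 0.19. Without WT replicate 3 the values were 0.45 (edgeR FDR 0.158) and 0.16. Ccne1 and Ccne2, the E cyclins, had log2 fold changes of 0.02 and 0.52 in OVE853 and of 0.54 and 0.52 in OVE918, none of which passed.

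The MCM2-7 subunits form the helicase that is loaded at origins in G1 and unwinds DNA in S phase, and none of its 6 genes passed in either line. Mcm2 was at 52.0, 48.0 and 23.0 CPM in WT, at 67.7, 62.9 and 70.9 CPM in OVE853 and at 43.8, 90.9, 63.1 and 65.6 CPM in OVE918. WT replicate 3 was the lowest and OVE918 replicate 2 the highest library. The log2 fold changes were 0.71 ± 0.30 in OVE853 (edgeR FDR 0.136) and 0.69 ± 0.29 in OVE918 (edgeR FDR 0.131), with 95% intervals of 0.03 to 1.39 and 0.04 to 1.33, and both were 0.39 without WT replicate 3. The other MCM genes had log2 fold changes of 0.19 (Mcm5) to 0.62 (Mcm3) in OVE853 and of 0.30 (Mcm4) to 0.56 (Mcm3) in OVE918. The licensing factor Cdt1 and its inhibitor Gmnn (geminin) had 0.23 and -0.06 in OVE853 and 0.13 and 0.34 in OVE918.

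Of the genes for nucleotide supply and the sliding clamp, Tyms, which makes thymidylate, rose in OVE918. It was at 11.1, 12.3 and 7.31 CPM in WT, at 12.5, 13.8 and 14.6 CPM in OVE853 and at 13.3, 17.8, 15.4 and 15.8 CPM in OVE918. All 7 transgenic libraries exceeded all 3 WT libraries. The log2 fold change was 0.61 ± 0.17 in OVE918 (edgeR FDR 0.0354) and 0.42 ± 0.18 in OVE853 (edgeR FDR 0.144). The OVE918 call was kept in 10 of 20 alternatives (FDR 0.00936 to 0.0880). It was lost without WT replicate 3 (0.41, FDR 0.0734, and 0.19 in OVE853) and without any OVE853 library or OVE918 replicates 2, 3 or 4.

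Rrm2, the regulated subunit of ribonucleotide reductase, had larger fitted changes than Tyms (0.84 ± 0.29 and 0.83 ± 0.28) and a larger error, and did not pass (edgeR FDR 0.0824 and 0.0690). Leaving out WT replicate 3 gave 0.55 and 0.56. Rrm1, the other subunit, had 0.20 and 0.17, and the thymidine kinase Tk1 had 0.46 in both lines. Pcna was at 59.0, 59.9 and 48.4 CPM in WT, at 51.3, 52.5 and 57.5 CPM in OVE853 and at 55.3, 74.8, 60.2 and 74.9 CPM in OVE918. The groups overlapped, with log2 fold changes of -0.05 (95% interval -0.35 to 0.25) and 0.25 (-0.03 to 0.53), and of -0.18 and 0.15 without WT replicate 3. Reads of the pseudogene Pcna-ps2 were counted apart, at up to 114 counts per library, as were those of Tyms-ps, at up to 5.

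E2f1 and Mybl2 (B-MYB) are the transcription factors of the G1/S group. E2f1 was at 15.0, 10.5 and 5.17 CPM in WT, at 13.0, 11.2 and 13.0 CPM in OVE853 and at 13.3, 16.9, 14.5 and 16.7 CPM in OVE918. WT replicate 1 lay within the OVE918 range. The log2 fold changes were 0.28 ± 0.29 and 0.59 ± 0.28, and they became -0.07 and 0.26 without WT replicate 3. Mybl2 had 0.68 ± 0.26 (edgeR FDR 0.104) and 0.44 ± 0.25 (edgeR FDR 0.247).

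Among G2/M genes, Cenpa, which marks the centromere and on which the kinetochore is built, was the one that rose. It was at 5.74, 6.36 and 3.19 CPM in WT, at 7.09, 6.36 and 9.46 CPM in OVE853 and at 8.05, 10.9, 10.3 and 12.7 CPM in OVE918. The OVE918 libraries all lay above the WT libraries, and OVE853 replicate 2 was level with WT replicate 2. The log2 fold change was 1.04 ± 0.26 in OVE918 (edgeR FDR 0.0178) and 0.58 ± 0.27 in OVE853 (edgeR FDR 0.156). The OVE918 call was kept in 19 of 20 alternatives, and without WT replicate 3 the log2 fold change was 0.78 (edgeR FDR 0.0278), below the limit for a DEG, and 0.30 in OVE853.

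The other centromere and kinetochore genes did not pass. Bub1, a kinase of the spindle checkpoint, had the largest fitted changes of all 45 genes in both lines, 1.03 ± 0.44 in OVE853 (edgeR FDR 0.138) and 1.23 ± 0.42 in OVE918 (edgeR FDR 0.0729), which were 0.58 and 0.81 without WT replicate 3. Its WT libraries held 5.27, 5.66 and 1.42 CPM, its OVE853 libraries 7.12, 7.67 and 10.3 CPM and its OVE918 libraries 6.20, 13.1, 9.09 and 10.1 CPM. All transgenic libraries lay above the WT libraries, WT replicate 3 by the widest margin. Cenpf, a large kinetochore protein of late G2, was at 23.1, 18.7 and 4.87 CPM in WT, at 22.6, 21.3 and 26.8 CPM in OVE853 and at 17.7, 30.1, 27.1 and 20.5 CPM in OVE918. Its groups overlapped, with log2 fold changes of 0.60 ± 0.45 and 0.62 ± 0.42, or 0.14 and 0.19 without WT replicate 3. Cenpe had 0.39 in both lines, and Bub1b, a checkpoint partner of Bub1, 0.38 and 0.44.

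Mki67 (Ki-67), which coats mitotic chromosomes and is the usual marker of cycling cells, was at 66.5, 59.6 and 17.7 CPM in WT, at 77.0, 70.9 and 89.9 CPM in OVE853 and at 65.1, 92.9, 83.5 and 69.0 CPM in OVE918. WT replicates 1 and 2 lay near the lowest transgenic libraries and WT replicate 3 far below them. The log2 fold changes were 0.73 (95% interval -0.14 to 1.60, edgeR FDR 0.222) and 0.70 (-0.13 to 1.52, edgeR FDR 0.222), and 0.30 and 0.29 without WT replicate 3. Top2a had 0.77 ± 0.35 and 0.88 ± 0.33, neither of which passed, and 0.40 and 0.53 without that library. The intervals of Mki67 in both lines held 0 as well as values over 1.

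The mitotic cyclins, their kinase Cdk1 and the factor Foxm1 also had their lowest level in WT replicate 3. Ccna2, cyclin A2, was at 19.0, 18.9 and 7.14 CPM in WT, at 19.2, 17.4 and 24.4 CPM in OVE853 and at 17.6, 27.6, 22.3 and 24.6 CPM in OVE918. Its groups overlapped, with log2 fold changes of 0.44 ± 0.32 and 0.62 ± 0.31, or 0.07 and 0.27 without WT replicate 3. Cdk1 had 0.49 ± 0.31 and 0.77 ± 0.30 (0.14 and 0.44 without it), Ccnb1 0.50 and 0.83, and Ccnb2 0.36 and 0.25. Foxm1, the activator of G2/M genes, was at 13.2, 12.4 and 6.35 CPM in WT, at 12.1, 11.4 and 15.7 CPM in OVE853 and at 10.5, 18.4, 13.6 and 13.3 CPM in OVE918. WT replicates 1 and 2 lay within both transgenic ranges, and its log2 fold changes were 0.30 ± 0.28 and 0.39 ± 0.26, or -0.00042 and 0.12 without WT replicate 3.

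The mitotic kinases, spindle proteins and activators of the anaphase-promoting complex gave no call. Birc5 (survivin), a subunit of the chromosomal passenger complex, was at 8.59, 8.56 and 3.39 CPM in WT, at 9.96, 8.63 and 10.7 CPM in OVE853 and at 7.39, 11.8, 10.5 and 11.1 CPM in OVE918. Tpx2, which activates Aurora A on the spindle, was at 15.6, 17.9 and 7.24 CPM in WT, at 18.1, 15.4 and 20.1 CPM in OVE853 and at 15.6, 21.6, 19.3 and 23.3 CPM in OVE918. Cdc20, which directs the anaphase-promoting complex to its targets, was at 10.3, 8.45 and 4.28 CPM in WT, at 10.9, 9.41 and 13.7 CPM in OVE853 and at 9.03, 14.8, 14.0 and 16.4 CPM in OVE918. For each of the 3 genes WT replicate 3 was the lowest library and an OVE918 library the highest. Cdc20 had the larger log2 fold changes, 0.57 ± 0.31 and 0.82 ± 0.29 (edgeR FDR 0.230 and 0.0825). Without WT replicate 3 the values were 0.24 and 0.52 for Cdc20, 0.16 and 0.24 for Birc5, and 0.06 and 0.24 for Tpx2. The kinases Aurka, Aurkb and Plk1 had 0.69, 0.22 and 0.56 in OVE853 and 0.72, 0.37 and 0.81 in OVE918. The motors Kif11 and Kif20a had 0.74 and 0.71 in OVE853 and 0.74 and 0.66 in OVE918, Nusap1 of the spindle 0.38 and 0.58, and the ubiquitin-conjugating enzyme Ube2c 0.38 and 0.70.

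**Figure D3:**
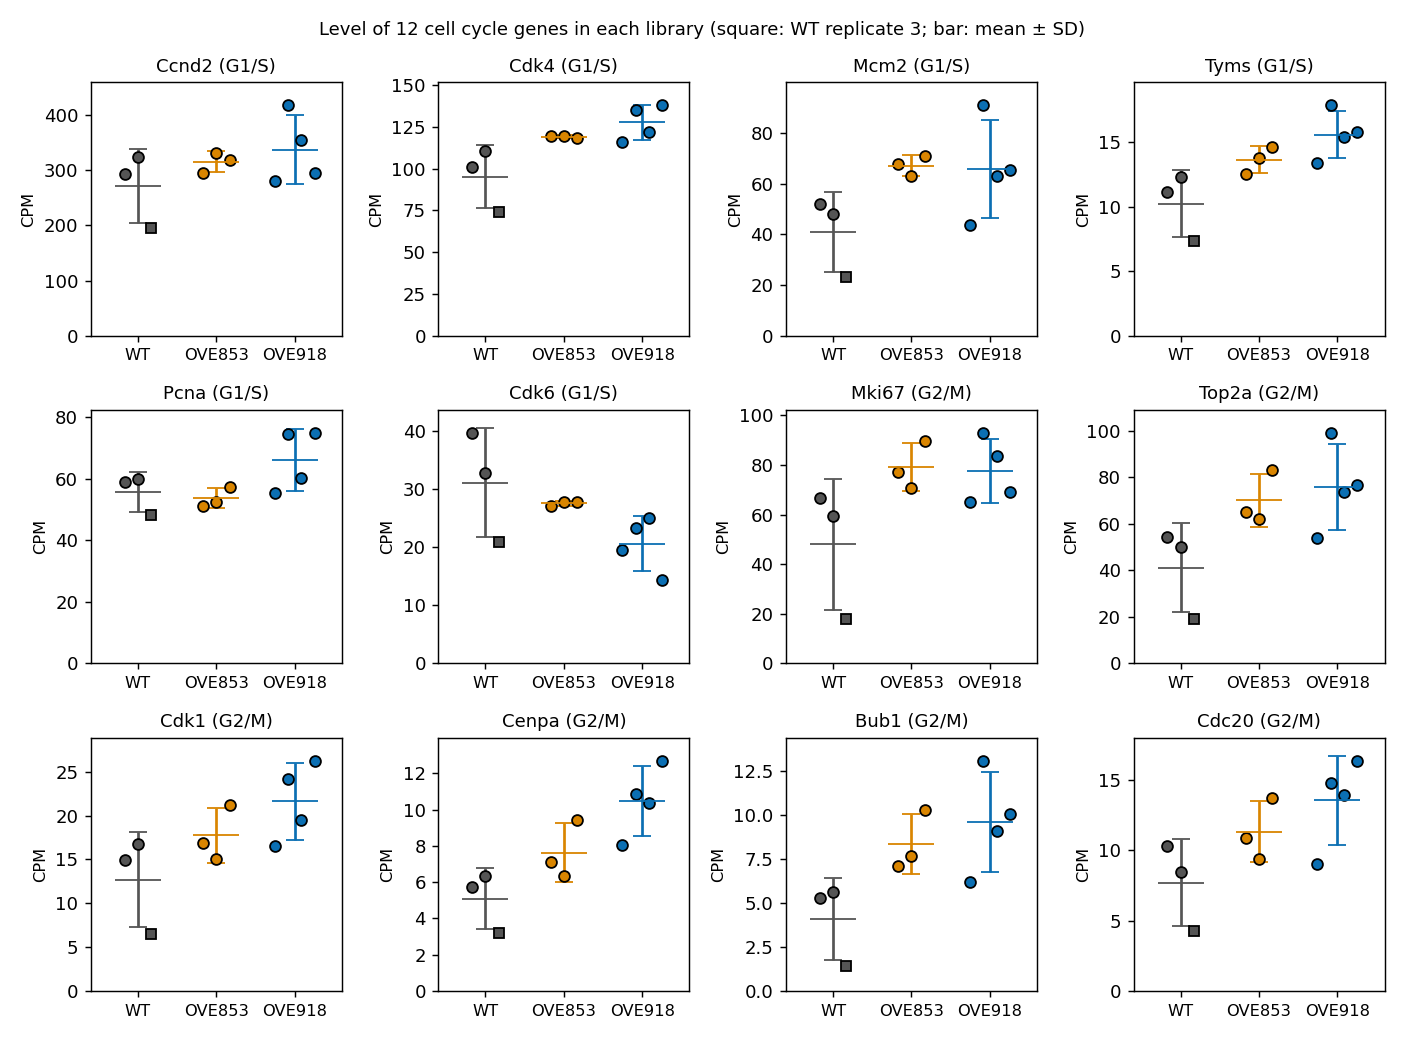
CPM (y axis, from 0) of 12 cell cycle genes in each WT, OVE853 and OVE918 library, with the mean and SD of the group. The square is WT replicate 3, which is the lowest point in each panel except that of Cdk6, where the lowest is an OVE918 library at 14.4 CPM.

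The levels of the G2/M genes varied together from library to library, within groups as well as between them. WT replicate 3 was the lowest of all 10 libraries in 22 of 22 G2/M genes and 19 of 23 G1/S genes, whereas it was the lowest in 21.5% of all genes tested. It held less than 50% of the mean of the other WT libraries in 20 of 22 G2/M genes and 6 of 23 G1/S genes, against 6.29% of all genes. The median level in WT replicate 3, as a percentage of the mean of WT replicates 1 and 2, was 70.0% for the D cyclins and their kinases, 64.5% for the E cyclins and Cdk2, 58.3% for licensing and helicase genes, 38.8% for the mitotic cyclins and Cdk1 and 25.9% for the centromere and kinetochore genes. Ccnd1 (96.9%) was the least reduced gene of the 45 and Cenpe (21.2%) the most.

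Within the transgenic lines the order of libraries was shared as well. OVE853 replicate 3 was the highest OVE853 library in 22 of 22 G2/M genes and 18 of 23 G1/S genes. OVE918 replicate 1 was the lowest OVE918 library in 22 of 22 G2/M genes and 20 of 23 G1/S genes, and OVE918 replicate 2 the highest in 17 and 17. Over all genes tested, the same libraries held those places in 32.5%, 21.6% and 28.1%. Relative to each gene's mean over the 10 libraries, the median G2/M level was 35.8% in WT replicate 3, 95.0% and 93.9% in the other WT libraries, 90.5% to 123% in OVE853 and 86.7% to 136% in OVE918. The medians of WT replicates 1 and 2 lay within the ranges of both transgenic lines. Lens fiber markers, which mark cells that have left the cycle, summed to 40354, 16583, 28946 and 42911 CPM in OVE918 replicates 1 to 4, where the summed G2/M level was 314, 504, 412 and 430 CPM. In OVE853 they summed to 13789, 32933 and 12160 CPM, where the G2/M level was 363, 340 and 455 CPM. OVE918 replicate 4 had the most fiber RNA of its group and the second highest G2/M level, and WT replicate 3 had the lowest value of both. In contrast, OVE853 replicate 2 had the most fiber RNA and the lowest G2/M level of its group. OVE918 replicate 2 had the least fiber RNA and the highest G2/M level of its group. The part of fiber content in these levels was not tested.

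**Figure D4:**
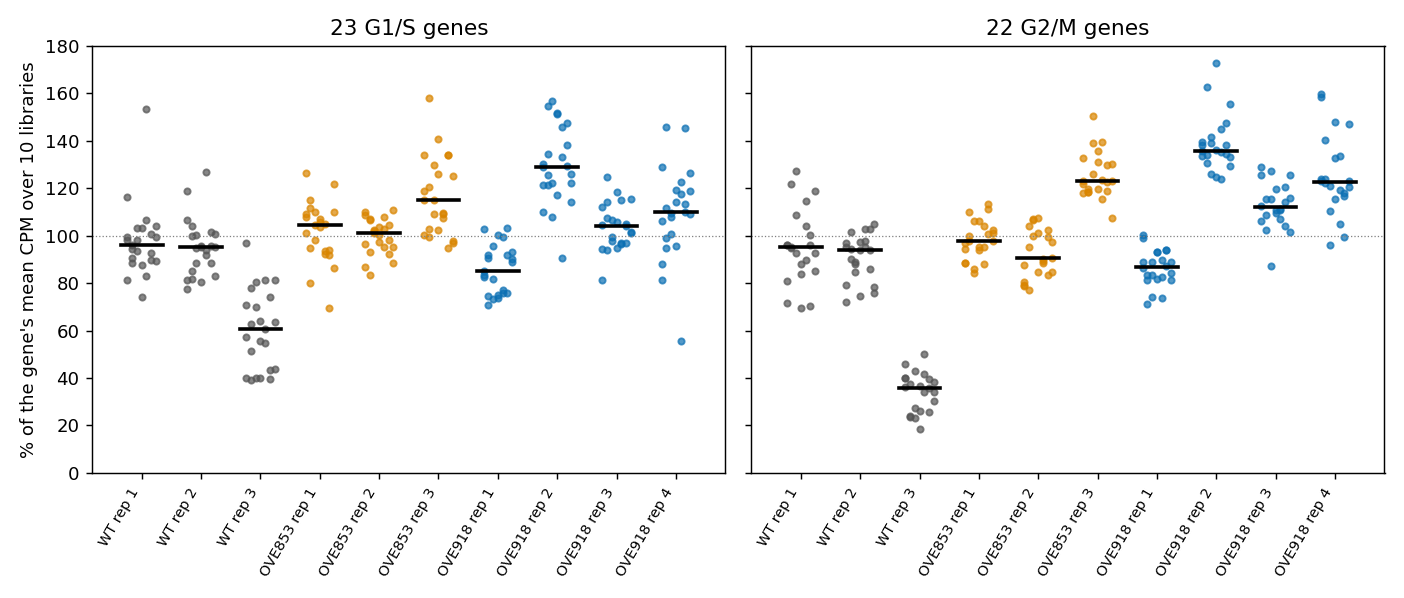
Level of each G1/S gene (left, 23 genes) and each G2/M gene (right, 22 genes) in each library, as a percentage of the gene's mean CPM over 10 libraries (y axis, from 0). Points are genes, black bars are medians, and the median G2/M level lies at 35.8% in WT replicate 3 and between 86.7% and 136% in the other 9 libraries.

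Without WT replicate 3, the fitted log2 fold change of every one of the 45 genes was smaller (lower in value) in both lines. The number of genes above 0 went from 20 to 16 of 23 G1/S genes and from 22 to 18 of 22 G2/M genes in OVE853, and from 21 to 20 and from 22 to 19 in OVE918. The values then ranged from -0.43 to 0.55 for G1/S genes and from -0.20 to 0.58 for G2/M genes in OVE853, and from -0.82 to 0.56 and from -0.09 to 0.81 in OVE918. The sign changed for 8 genes in OVE853 (Ccnd2, Ccne1, Mcm5, E2f1, Foxm1, Cenpe, Bub1b and Aurkb) and for 4 in OVE918 (Cdt1, Ccnb2, Cenpe and Aurkb), none of which passed the test with or without the library. The calls were then 0 in OVE853 and 2 in OVE918, namely Cenpa, higher, and Cdk6, lower. The retinal and corneal markers given above were high in the same library by sum and by median. The endothelial and photoreceptor markers were high there by sum and not by median. The part of these tissues in the low cell cycle levels of WT replicate 3 was not tested. Macrophage markers, whose cells can divide, summed to 16.4 to 40.8 CPM in WT, 40.2 to 67.4 CPM in OVE853 and 30.5 to 78.6 CPM in OVE918. All 10 had a log2 fold change above 0 in both lines (medians of 0.99 and 1.02). The lowest OVE918 sum was that of replicate 2 and the highest WT sum that of replicate 3, and the part of macrophages in the cell cycle levels was not tested.

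**Figure D5:**
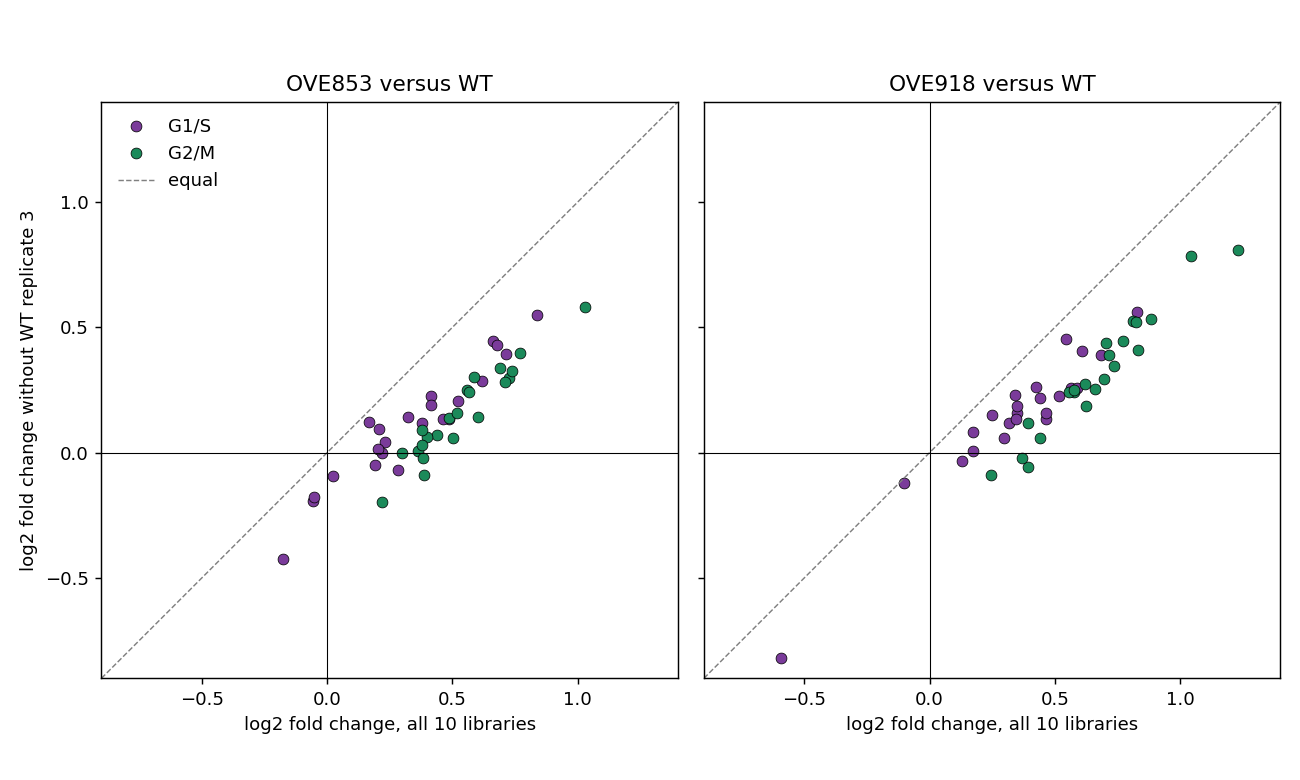
Fitted log2 fold change of 45 genes with all 10 libraries (x axis) and without WT replicate 3 (y axis), for OVE853 (left) and OVE918 (right) against WT. All points lie under the dashed line of equal values, and the largest value on the y axis is 0.58 in OVE853 and 0.81 in OVE918.

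Between the transgenic lines no member passed the test. OVE918 against OVE853 gave 0 of 45 calls by edgeR, DESeq2 and voom, where edgeR called 0.377% of all genes. An unadjusted edgeR p under 0.05 was reached by 2 of 45 members, Ccne1 and Pcna, and by 3194 of 18058 genes tested. Ccne1 was at 3.52, 4.65 and 4.78 CPM in OVE853 and at 5.21, 6.98, 5.26 and 7.35 CPM in OVE918. The groups did not overlap, and the log2 fold change was 0.52 (95% interval 0.09 to 0.96, edgeR FDR 0.212). The median difference on the log2(CPM + 0.5) scale was -0.037 for G1/S genes and 0.11 for G2/M genes, against -0.019 over all genes. Cdk6, at -0.42 (-0.90 to 0.07), was the lowest of the 45.

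Other cell cycle genes, 116 in all from widely used phase lists and textbook complexes, were counted in the same fits, in which 13.6% of all genes were called in OVE853 and 16.9% in OVE918. Of 33 further S phase genes, 0 passed in OVE853 and 2 in OVE918, both DEGs, Dscc1 (1.48 ± 0.40, edgeR FDR 0.0278), of a clamp loader, and Rad51ap1 (1.02 ± 0.32, edgeR FDR 0.0496), of recombination repair. Of 38 further G2/M genes, 1 passed in OVE853 and 2 in OVE918, all higher, and Cks2, a subunit that binds CDKs, was the one DEG (1.09 ± 0.26 in OVE918, edgeR FDR 0.0168). Of 28 genes of origin recognition and the replication fork, 2 were higher and 1 lower in OVE853, and 4 were higher in OVE918. The share called in either direction was below that of all genes in each of these 3 lists. Of all genes, 6.54% were called higher in OVE853 and 6.85% in OVE918. The share of origin and fork genes called higher exceeded this in both lines, and that of the S phase and G2/M lists did not. Pole2, of DNA polymerase epsilon, was a DEG in both lines (1.32 ± 0.32, edgeR FDR 0.0219, and 1.20 ± 0.30, edgeR FDR 0.0199). Its level was 2.55, 2.68 and 1.02 CPM in WT, 4.53 to 5.65 CPM in OVE853 and 4.10 to 5.38 CPM in OVE918, so that WT did not overlap with either line, with or without WT replicate 3. Without that library, Dscc1 (1.17, edgeR FDR 0.0753) and Rad51ap1 (0.79, edgeR FDR 0.144) no longer passed, while Cks2 (0.86, edgeR FDR 0.0362) and Pole2 (0.95 and 0.86, edgeR FDR 0.0147 in each line) still passed at a smaller change than that of a DEG.

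The RB family, E2F family and DREAM complex genes, which gate these programs, gave 3 calls of 17 genes in OVE853 (2 higher, 1 lower) and 4 in OVE918 (2 higher, 2 lower), about 1 gene more in each line than the shares over all genes would give. The ones that passed were E2f4 and E2f5, E2F proteins that act with p107 and p130, and Lin52, a DREAM subunit, in both lines, and Rbl2, which is p130, in OVE918. E2f5 was at 15.9 to 19.1 CPM in WT, at 25.1 to 28.0 CPM in OVE853 and at 24.2 to 32.2 CPM in OVE918, with log2 fold changes of 0.62 ± 0.12 (edgeR FDR 0.00917) and 0.73 ± 0.11 (edgeR FDR 0.00157). Lin52 was at 15.2 to 24.9 CPM in WT, at 11.6 to 13.0 CPM in OVE853 and at 9.08 to 10.97 CPM in OVE918, with -0.71 ± 0.16 (edgeR FDR 0.0190) and -0.94 ± 0.15 (edgeR FDR 0.00183). Neither gene was a DEG, and for both genes WT did not overlap with either line, with or without WT replicate 3. With that library left out, E2f5 (0.52 and 0.65), E2f4 (0.39 and 0.32) and Lin52 (-0.55 and -0.76) still passed in each line, and Rbl2 in OVE918 did not (-0.38, edgeR FDR 0.0506). These genes were named after their values were seen, and the summed level of the list in WT replicate 3 was 95.2% of that in the other WT libraries, against 35.2% for the G2/M members.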

How the data were processed

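RNA of pooled lens epithelial explants was measured in 10 libraries (3 WT, 3 OVE853, 4 OVE918). The authors used Cutadapt 5.2 for trimming, STAR 2.7.11b for alignment to GRCm39 and featureCounts 2.0.8, set to reverse strand, for RefSeq genes, and the deposited values are raw counts of read pairs. Of the deposited columns, 0 lacked a sample. Replicates are separate pools of mice.

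The main fit used edgeR 4.0.16 in R 4.3.3 (TMM, filterByExpr, robust quasi-likelihood fit, 3 groups over all 10 libraries, Benjamini-Hochberg adjustment within each contrast). The study's filter is 2 FPKM in 5 libraries in its R script and in 6 in its results text, and the former was run as an alternative because it drops members. Alternatives also comprised DESeq2 1.42.0, voom of limma 3.58.1, upper-quartile factors, no filter, no robust estimation, only the groups compared, the replicate number or the R number of the library names in the model, and leaving out each library. Bias-adjusted deviances were added after seeing the data. Exon lengths and promoters came from GENCODE vM39 on GRCm39. The steps were tested on counts simulated with the dispersions of these libraries. Of 100 genes given a 2-fold change, 38 were called in OVE853 and 42 in OVE918. Of 100 genes given a 4-fold change, 80 were called in each line. A gene without a call can therefore still have changed by 2-fold or less.

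The members and lists were chosen with earlier results of these data known. Values in every library are given for members that passed a test and for the member with the highest mean CPM in each role, and DEGs of the other lists are named. Bub1, Cdk6 and Ccne1, and the plotted Cdk1 and Top2a, were added after their values were seen.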

Additional observations from a re-analysis of the deposited data

Results flagged for a closer look

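In groups of 4 libraries, a value was set apart when its gap to the nearest other library exceeded Dixon's 95% critical share of the range. This was examined in OVE918 for 63 genes and list sums, of which chance sets apart about 1 in 20, and 1 was set apart. Ccne2, an E cyclin, was at 3.45 CPM in OVE918 replicate 1 and at 4.36, 4.40 and 4.54 CPM in the other OVE918 libraries (ratio 0.836). No cell cycle member differed between OVE918 and OVE853 at an FDR of at most 0.05 (edgeR). WT and OVE853, with 3 libraries each, were not examined in this way, so WT replicate 3 does not appear here.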

How the results depend on the processing

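Which members are called depended on the setting. In OVE853 (0 calls, 0 DEGs), 1 member was called with the filter of 2 FPKM and 1 with voom, 2 with DESeq2, and 9 (4 DEGs) with the R number of the library in the model, and leaving out each library gave 0 to 1 calls and 0 to 1 DEGs. In OVE918 (3 calls, 1 DEG), DESeq2 called 10 (2 DEGs), the fit of only the groups compared 1, voom 2 (0 DEGs), and the R number 14 (5 DEGs), and leaving out each library gave 1 to 5 calls and 0 to 3 DEGs. With the R number, 12.6% of all genes were called in OVE853 (5.11% higher) and 16.5% in OVE918 (6.59% higher). The 9 and 14 of 45 members, all called higher, exceeded these shares. The R number comes from library names of the study, and what it stands for is not given in the sources used here. With the replicate block, 0 members were called in OVE918, with 0 DEGs, and 0 in OVE853. Replicate numbers did not pair the libraries, since 1 of 9 same-number pairs correlated over 0.1 (r of -0.42 to 0.284). OVE918 against OVE853 gave 0 member calls in every setting run. For the other cell cycle lists (7 calls in OVE853, 12 in OVE918, 0 between the lines), DESeq2 gave 16, 29 and 2, only the groups compared 3, 5 and 1, the R number 13 and 24, and voom 23 in OVE853 and 6 between the lines, while no low-count filter gave 7 and the replicate block 4 in OVE918. Leaving out each library gave 0 to 20, 5 to 24 and 0 to 1. Between the lines, DESeq2 called 5.45% of all genes, voom 9.55% and only the groups compared 2.32%. That last fit called 10.3% in OVE853. In OVE918, no low-count filter called 8.80% and the replicate block 11.7%. Without WT replicate 3 the log2 fold change reversed for 8 members in OVE853 and 4 in OVE918, among the named genes for Ccnd2 (-0.00071, up to 0.36 without another library), E2f1 (-0.068, up to 0.67) and Foxm1 (-0.00042, up to 0.48) in OVE853, and with the R number that of Pcna became 0.064. Leaving out each library moved the median log2 difference of G1/S members from 0.11 to 0.48 (OVE853) and from 0.15 to 0.50 (OVE918), and that of G2/M members from 0.13 to 0.80 and from 0.26 to 0.99. The cause of these shifts was not tested.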
